A study of Homo sapiens with 6 samples.

Results

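The mRNAs described here were measured in extracellular vesicles (EVs) released by CD47- and WT Jurkat T cells. Their products are proteins of the spliceosomal small nuclear ribonucleoproteins (snRNPs), or relatives with like symbols. They were chosen by gene symbol: those starting with SNRP, or with LSM, SF3A, SF3B or PRPF and a digit, with pseudogenes left out. Of the 18417 genes measured by a probe set listed with a single gene symbol, 44 fell in this group. They comprised 7 Sm proteins, 13 LSm proteins, 2 U1 proteins, 11 U2 proteins, 5 proteins of the U4/U6.U5 tri-snRNP and 6 further PRPF proteins. A pseudogene, SNRPD2P2, also matched the symbols and was left out. SNRPN, a close relative of SNRPB, was listed only on probe sets that carry other symbols as well, and PRPF4B was not analysed here.

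The spliceosome removes introns from pre-mRNA and is built from snRNPs, each a small nuclear RNA (snRNA) with a ring of Sm or LSm proteins and proteins of its own. The Sm ring is loaded onto the snRNA in the cytoplasm, after PHAX and exportin-1 have carried the capped snRNA precursor out of the nucleus, and the cap is then hypermethylated before the snRNP returns. Spliceosomal snRNPs act in the nucleus, whereas the values below are those of mRNAs in vesicles. The choice by symbol also took in LSm proteins that work outside the spliceosome, some of them in the cytoplasm.

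The CD47- EVs came from JinB8 cells, a mutant of the Jurkat line that lacks CD47, with genotype CD47_mut in the labels. The WT EVs set against them came from the parental Jurkat cells, with genotype CD47_WT. Each cell line gave 3 EV preparations, and both were cultured for 24 to 48 h in the serum-free medium HITES with no other treatment named. RNA of each preparation (300 ng for labeling) was hybridized to its own Affymetrix whole-transcript human gene array, and the deposited values are log2 levels made with robust multi-array average (RMA). CD47- EVs stand for a single mutant line, so loss of CD47 and other differences between the lines cannot be told apart. The labels do not say whether the preparations came from separate cultures, so p values measure the spread between these samples only, which may be technical. A level is relative to the other RNA on its array, and fewer EVs carrying an mRNA cannot be told apart from fewer copies in each EV.

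The medians of the 6 arrays lay between 5.08 and 5.14 on the log2 scale, and pairs of arrays correlated across genes with r between 0.981 and 0.989. The CD47 probe set gave log2 levels of 4.58, 4.67 and 4.94 in CD47- EVs, against 4.72, 4.69 and 4.72 in WT EVs. The groups overlapped, and the mean was above that of only 23.7% of the 338 genes for olfactory receptors, a family silent in most T cells that serves here as a gauge of background. The CD47 value therefore does not check the labels. Of 11 T cell marker genes measured, CD7 (mean log2 level 7.75) and LCK (6.93) exceeded the olfactory receptor 95th percentile (6.79). Among the markers of B cells, myeloid cells, erythroid cells and platelets, endothelial cells and epithelial cells, KRT18 (7.64) was the single gene above that percentile. None of these marker genes passed the test between CD47- and WT EVs. The CD47- arrays lay entirely above the WT arrays for 3 of the 11 T cell markers, against 7.3% of all genes. These were CD3D (log2 difference 0.28), CD3E (0.37) and CD3G (0.34). Among the markers of other cell types, the CD47- arrays lay entirely below the WT arrays for TEK (-0.20) and CDH1 (-0.14). Over all genes, 5.53% lay so. The mean log2 level of the 11 was 6.12 to 6.17 on the CD47- arrays and 5.95 to 6.08 on the WT arrays, and its part in the snRNP values was not tested.

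Among the 44 snRNP protein mRNAs, SNRPA1 was lower in CD47- EVs and none was higher at an adjusted p under 0.05 in limma, leaving 43 that did not pass. Over all genes, 0.668% passed as higher and 0.0163% as lower, and SNRPA1 was 1 of only 3 genes that passed as lower. The log2 differences of the 44, CD47- minus WT, lay between -0.41 and 0.34 with a median of 0.04, against a median of 0.0029 over all genes. Differences above 0 were found for 27 of the 44 (61.4%), against 51.3% of all genes. With each array centered on the olfactory receptors, 36 of the 44 were above 0, against 13842 of all 18417 genes. The SD of the differences was 0.14 for the 44 and 0.13 for all genes. The snRNP protein mRNAs were thus spread about as widely as the rest of the array.

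The 3 CD47- arrays lay entirely above the 3 WT arrays for 8 of the 44 genes (18.2%), against 7.3% of all genes. These were SNRPB, SNRPF, LSM12, LSM10, SNRPA, SF3B3, PRPF8 and PRPF38A, and every class was represented. The LSm class was represented only by LSM12 and LSM10, which lie outside the U6 snRNA ring of LSM2 to LSM8. In that ring, 0 of the 7 mRNAs had groups that stood apart. The CD47- arrays lay entirely below the WT arrays for 2 genes, SNRPA1 and PRPF18 (4.55%), against 5.53% of all genes. At an unadjusted p under 0.05, 9 of the 44 were higher in CD47- EVs (20.5%, against 5.16% of all genes) and 1 was lower (2.27%, against 2.87%). These shares describe the group and were not tested. The mean log2 level over the 44 genes was 5.16, 5.17 and 5.20 in CD47- EVs, against 5.18, 5.11 and 5.09 in WT EVs, so the group mean of the arrays overlapped.

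**Figure D1:**
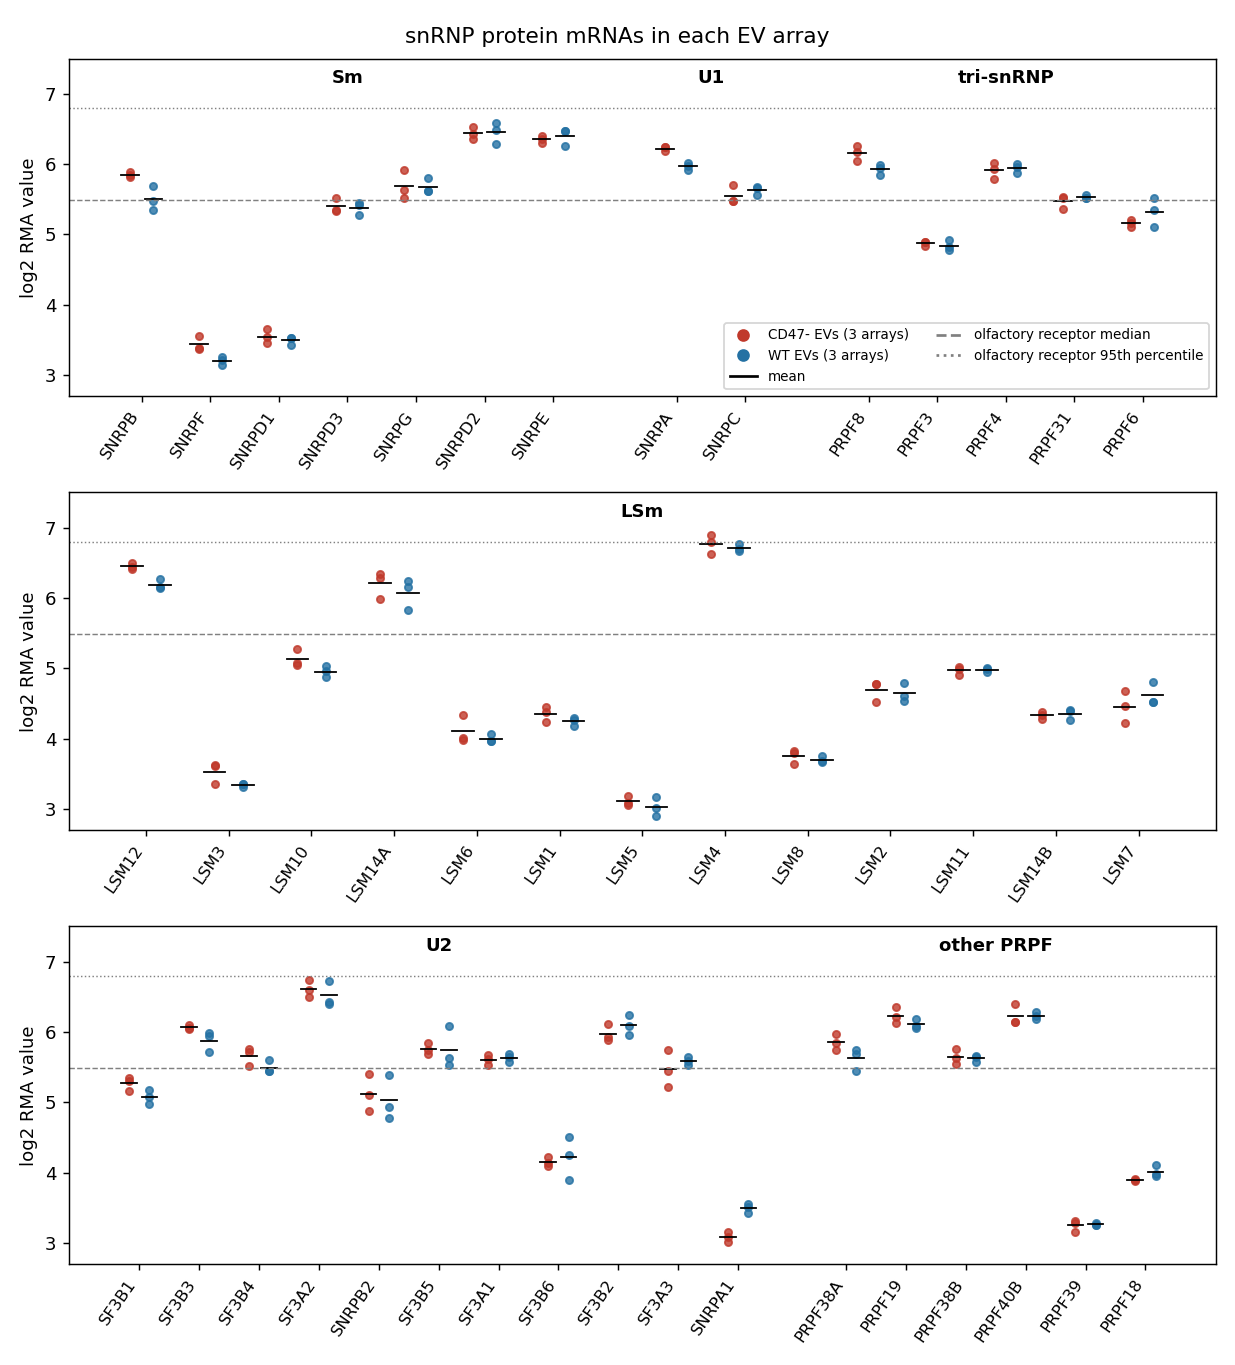
Log2 RMA level (y axis) of the 44 snRNP protein mRNAs (x axis, by class) on each of the 6 arrays, with CD47- EVs left of WT EVs. Points are single arrays and bars are group means; SNRPA1 is lower on the 3 CD47- arrays (3.02 to 3.16) than on the 3 WT arrays (3.43 to 3.56), while SNRPB is higher on all 3 (5.82 to 5.88, against 5.35 to 5.69).

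SNRPA1 encodes a leucine-rich repeat protein of the U2 snRNP that pairs with the SNRPB2 protein to bind a stem-loop of U2 snRNA. Its log2 level was 3.02, 3.16 and 3.09 in CD47- EVs, against 3.51, 3.56 and 3.43 in WT EVs. The groups did not overlap, and each varied little among its own arrays (3.09 ± 0.07 in CD47- EVs and 3.50 ± 0.07 in WT EVs, SD, n = 3 each). The log2 difference was -0.41 (SE 0.08, 95% confidence interval -0.58 to -0.24), a level in CD47- EVs 0.754 times that in WT EVs, with an adjusted p of 0.0312 in limma. SNRPA1 was a dim probe set, with a mean above that of only 3.85% of the olfactory receptor genes. Its call was lost when any single array was left out (adjusted p between 0.0605 and 0.128), although the difference stayed between -0.44 and -0.37. It was also lost with the replicate number as a block (difference -0.41, adjusted p = 0.0575). Centering each array on the olfactory receptor genes gave a difference of -0.35 with an adjusted p of 0.0616. Over all alternatives the adjusted p ranged from 0.0262 to 0.391.

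SNRPB2 encodes that partner on U2 snRNA. Its log2 levels were 4.87, 5.40 and 5.10 in CD47- EVs, against 5.39, 4.78 and 4.94 in WT EVs. The groups overlapped fully, and SNRPB2 had the highest SE of the 44 (0.15), with a difference of 0.09 and an interval of -0.24 to 0.43. Whether SNRPA1 and SNRPB2 differ from each other in their change was not tested.

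The other U2 proteins belong to SF3A and SF3B, the complexes that clamp U2 snRNA onto the branch site of the intron. The 11 U2 mRNAs had a median log2 difference of 0.01, and 6 were above 0. With a further quantile normalization the median was -0.0043. The 3 SF3A mRNAs had a median of -0.03 and the 6 SF3B mRNAs a median of 0.09, and none of the 9 passed. SF3B1, the large subunit that holds the branch site and a recurrent site of mutation in leukemias, had log2 levels of 5.31, 5.16 and 5.34 in CD47- EVs, against 5.17, 5.07 and 4.97 in WT EVs. The groups met at their edges, with the lowest CD47- array just under the highest WT array, and the difference was 0.20 (SE 0.08, adjusted p = 0.533 in limma). For SF3B3, a scaffold subunit, levels were 6.06, 6.10 and 6.04 in CD47- EVs, against 5.98, 5.94 and 5.71 in WT EVs. Those groups did not overlap, and most of the spread lay among the WT arrays (difference 0.19, SE 0.09, adjusted p = 0.609). SF3B4, which contacts pre-mRNA next to the branch site, had levels of 5.76, 5.72 and 5.51 in CD47- EVs, against 5.60, 5.44 and 5.44 in WT EVs, with 1 CD47- array inside the WT range (difference 0.17, adjusted p = 0.703). SF3A2 had levels of 6.60, 6.74 and 6.50 in CD47- EVs, against 6.73, 6.43 and 6.40 in WT EVs, which overlapped (difference 0.10, adjusted p = 0.907). The remaining 5 U2 mRNAs (SF3A1, SF3A3, SF3B2, SF3B5 and SF3B6) had differences between -0.12 and 0.01.

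The Sm proteins form the ring shared by the U1, U2, U4 and U5 snRNPs. The 7 Sm mRNAs had a median log2 difference of 0.02, 5 were above 0, and none passed. SNRPB encodes SmB and SmB′ and was the farthest above 0 of all 44 genes. Its log2 levels were 5.82, 5.84 and 5.88 in CD47- EVs, against 5.69, 5.48 and 5.35 in WT EVs. The CD47- arrays were tightly grouped above a wider WT group, at 5.85 ± 0.03 in CD47- EVs and 5.51 ± 0.17 in WT EVs (SD, n = 3 each). The difference was 0.34 (SE 0.09, interval 0.14 to 0.54) with an adjusted p of 0.17, which passed the threshold only once arrays were centered on the olfactory receptors (difference 0.40, adjusted p = 0.04 in limma, with a range of 0.04 to 0.639 over all alternatives).

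SNRPF, which encodes SmF, had log2 levels of 3.56, 3.37 and 3.38 in CD47- EVs, against 3.26, 3.21 and 3.14 in WT EVs. These groups did not overlap either, but the difference of 0.24 (SE 0.08, adjusted p = 0.361) did not pass, and SNRPF was above only 4.44% of the olfactory receptor genes. SNRPD1 (SmD1) had levels of 3.45, 3.54 and 3.65 in CD47- EVs, against 3.53, 3.42 and 3.53 in WT EVs, and SNRPD2 (SmD2) had 6.52, 6.36 and 6.43 in CD47- EVs, against 6.29, 6.49 and 6.58 in WT EVs. Both overlapped, with differences of 0.05 for SNRPD1 and -0.02 for SNRPD2, and SNRPD2 was above 0 (0.05) once arrays were centered on the olfactory receptors. SNRPD3, SNRPG and SNRPE lay between -0.04 and 0.02. SmB and SmF mRNAs were the 2 of the 7 Sm mRNAs whose groups did not overlap. Both were higher in CD47- EVs, as 7.3% of all genes were by that measure, and neither passed. Whether they differ from their ring partners in their change was not tested.

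**Figure D2:**
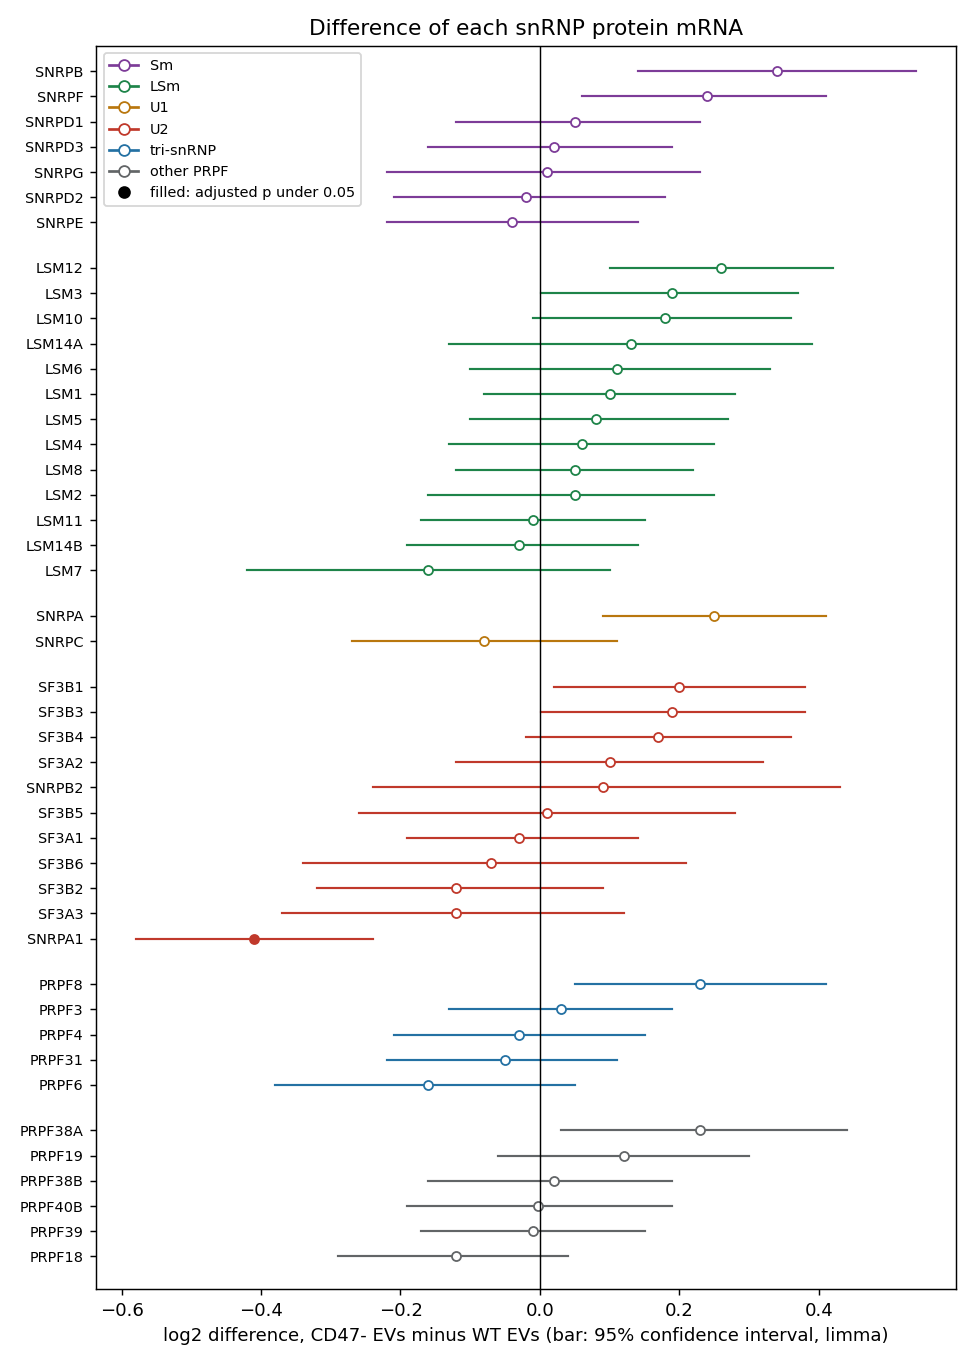
Log2 difference, CD47- EVs minus WT EVs, of each of the 44 snRNP protein mRNAs with its 95% confidence interval from limma (x axis), grouped by class and ordered by size (y axis). SNRPA1 at -0.41 is the single filled point (adjusted p under 0.05), and SNRPB at 0.34 is the farthest to the right.

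LSm proteins resemble Sm proteins. LSM2 to LSM8 ring the end of U6 snRNA in the nucleus, LSM1 replaces LSM8 in a cytoplasmic ring that promotes mRNA decay, and LSM10 and LSM11 sit in the U7 snRNP that trims histone mRNAs. The 13 LSm mRNAs had a median log2 difference of 0.08, 10 were above 0, and none passed. The 7 mRNAs of the U6 ring had a median of 0.06, with 6 above 0. LSM12, an LSm-domain protein outside these rings, had log2 levels of 6.44, 6.50 and 6.41 in CD47- EVs, against 6.27, 6.15 and 6.14 in WT EVs. The groups did not overlap (difference 0.26, SE 0.08, interval 0.10 to 0.42, adjusted p = 0.237 in limma). The other probe set of LSM12 gave a difference of 0.29, with nearly the same level on each array.

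LSM10 had log2 levels of 5.27, 5.05 and 5.07 in CD47- EVs, against 5.03, 4.87 and 4.96 in WT EVs. The groups were separated by a narrow gap (difference 0.18, interval -0.01 to 0.36, adjusted p = 0.659 in limma). LSM11, its partner in the U7 snRNP, had a difference of -0.01 (interval -0.17 to 0.15). Whether LSM10 and LSM11 differ from each other in their change was not tested. For LSM3 the levels were 3.62, 3.36 and 3.61 in CD47- EVs, against 3.36, 3.31 and 3.35 in WT EVs, with CD47- replicate 2 at the WT maximum (difference 0.19, adjusted p = 0.615). LSM4, of the same ring, had levels of 6.62, 6.79 and 6.90 in CD47- EVs, against 6.67, 6.69 and 6.77 in WT EVs. Those groups overlapped, and the difference of 0.06 was below 0 (-0.01) without CD47- replicate 3. The other LSm mRNAs ranged from -0.16 for LSM7 to 0.13 for LSM14A, which encodes a protein of cytoplasmic processing bodies.

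The U1 snRNP recognises the 5′ splice site. Its 2 mRNAs in this group lay on opposite sides of 0, and neither passed. SNRPA encodes a protein that binds a stem-loop of U1 snRNA and resembles the SNRPB2 protein. Its log2 levels were 6.24, 6.24 and 6.18 in CD47- EVs, against 6.02, 5.97 and 5.91 in WT EVs. The groups did not overlap and were among the tightest of the 44 (6.22 ± 0.03 in CD47- EVs and 5.97 ± 0.05 in WT EVs, SD, n = 3 each), with a difference of 0.25 (SE 0.07, interval 0.09 to 0.41) and an adjusted p of 0.237 in limma. SNRPC, which steadies the pairing of U1 with the splice site, had levels of 5.47, 5.48 and 5.70 in CD47- EVs, against 5.56, 5.66 and 5.67 in WT EVs. The groups overlapped (difference -0.08, interval -0.27 to 0.11, adjusted p = 0.909).

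In the tri-snRNP, PRPF8 is the U5 protein that cradles the catalytic core, PRPF6 bridges U5 to U4/U6, and PRPF3, PRPF4 and PRPF31 belong to U4/U6. The 5 mRNAs had a median log2 difference of -0.03, which was 0.03 once arrays were centered on the olfactory receptors, and none passed. PRPF8 had log2 levels of 6.17, 6.04 and 6.26 in CD47- EVs, against 5.95, 5.99 and 5.84 in WT EVs. The groups did not overlap (difference 0.23, SE 0.08, interval 0.05 to 0.41, adjusted p = 0.405 in limma). PRPF6 had levels of 5.11, 5.16 and 5.21 in CD47- EVs, against 5.51, 5.11 and 5.35 in WT EVs, so that 1 WT array lay as low as the lowest CD47- array (difference -0.16, adjusted p = 0.756). PRPF31, mutated in retinitis pigmentosa, had levels of 5.52, 5.36 and 5.53 in CD47- EVs, against 5.51, 5.51 and 5.56 in WT EVs. Its groups overlapped, with a difference of -0.05 that was 0.01 after the same centering. PRPF3 differed by 0.03 and PRPF4 by -0.03.

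Of the 6 further PRPF mRNAs none passed, and their median log2 difference was 0.01. PRPF38A, which joins the spliceosome before its activation, had log2 levels of 5.75, 5.85 and 5.97 in CD47- EVs, against 5.69, 5.74 and 5.45 in WT EVs. The lowest CD47- array was just above the highest WT array (difference 0.23, SE 0.09, adjusted p = 0.519 in limma). PRPF19, the ubiquitin ligase of the complex that bears its name, had levels of 6.22, 6.13 and 6.35 in CD47- EVs, against 6.19, 6.09 and 6.05 in WT EVs, which overlapped (difference 0.12, adjusted p = 0.797). PRPF18, which acts at the second step of splicing, had levels of 3.88, 3.90 and 3.91 in CD47- EVs, against 4.11, 3.95 and 3.98 in WT EVs. The CD47- arrays were nearly identical and all below the WT arrays, but the difference was small (-0.12, SE 0.08, interval -0.29 to 0.04, adjusted p = 0.776). PRPF38B, PRPF39 and PRPF40B lay between -0.01 and 0.02.

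**Figure D3:**
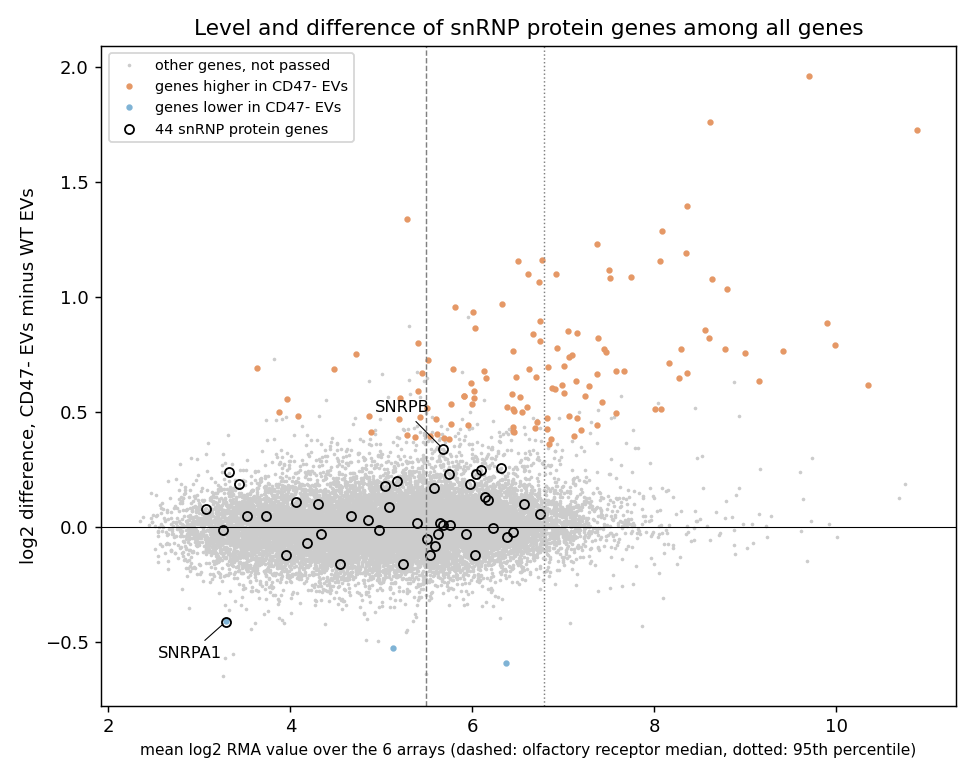
Log2 difference, CD47- EVs minus WT EVs (y axis), against the mean log2 RMA level over the 6 arrays (x axis) for all 18417 genes. Filled colors mark the 123 genes higher and 3 genes lower in CD47- EVs and open circles the 44 snRNP protein genes, of which none lies beyond the olfactory receptor 95th percentile (dotted line, 6.79).

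Against the same gauge of background, 23 of the 44 genes (52.3%) had a mean above the olfactory receptor median of 5.49, compared with 39.2% of all genes, and 0 were above the 95th percentile of 6.79, as 866 genes were. Of the 126 genes that passed in either direction, 107 were above that median. The median log2 difference was 0.02 for the 23 snRNP genes above it and 0.05 for the 21 at or under it. Across the 44 genes, which share the 6 arrays and are not independent replicates, level and difference correlated with r = 0.19 and rho = 0.16, and across all genes with r = 0.16 and rho = 0.11. The part of the dim levels in the result was not tested.

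The SE of a log2 difference was between 0.07 and 0.15 for the 44 genes, with a median of 0.09, and a difference of 0.42 at the median SE would have been needed to pass. At the highest SE it would have been 0.76. The 95% confidence intervals of 42 of the 44 lay within 0.5 of 0 on the log2 scale, the exceptions being SNRPB and SNRPA1. The 10 genes whose intervals excluded 0 were the same 9 higher and 1 lower that had an unadjusted p under 0.05 in limma. Over all genes, 5.16% were higher and 2.87% lower at that p.

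Among 74 measured genes of the wider pathway, listed by function, 2 were higher in CD47- EVs and none was lower, where 0.668% of all genes were higher and 0.0163% lower. The median log2 difference of the 74 was 0.04, against 0.0029 over all genes. Both genes that passed belong to snRNPs. TXNL4A, a small U5 protein, had log2 levels of 4.08, 3.72 and 4.13 in CD47- EVs, against 3.25, 3.26 and 3.34 in WT EVs. The CD47- arrays all lay above the WT arrays, but varied more among themselves (SD 0.22 in CD47- EVs and 0.05 in WT EVs). The difference was 0.69 (SE 0.10, interval 0.47 to 0.92), 1.62-fold higher in CD47- EVs, with an adjusted p of 0.00711 in limma. When each gene's variance was taken from that gene alone, a t test gave TXNL4A an adjusted p of 0.481. TXNL4A was above only 7.1% of the olfactory receptor genes. SNRNP25, a protein of the U11/U12 snRNP that serves the minor spliceosome, had levels of 6.61, 6.71 and 6.69 in CD47- EVs, against 6.08, 6.38 and 6.23 in WT EVs. The groups did not overlap, and the difference was 0.44 (SE 0.09), 1.35-fold higher in CD47- EVs, with an adjusted p of 0.047, close to the threshold. The call of SNRNP25 was lost without any 1 of 5 of the 6 arrays, and held without WT replicate 2 (adjusted p = 0.0327, with a range of 0.0117 to 0.505 over all alternatives).

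**Figure D4:**
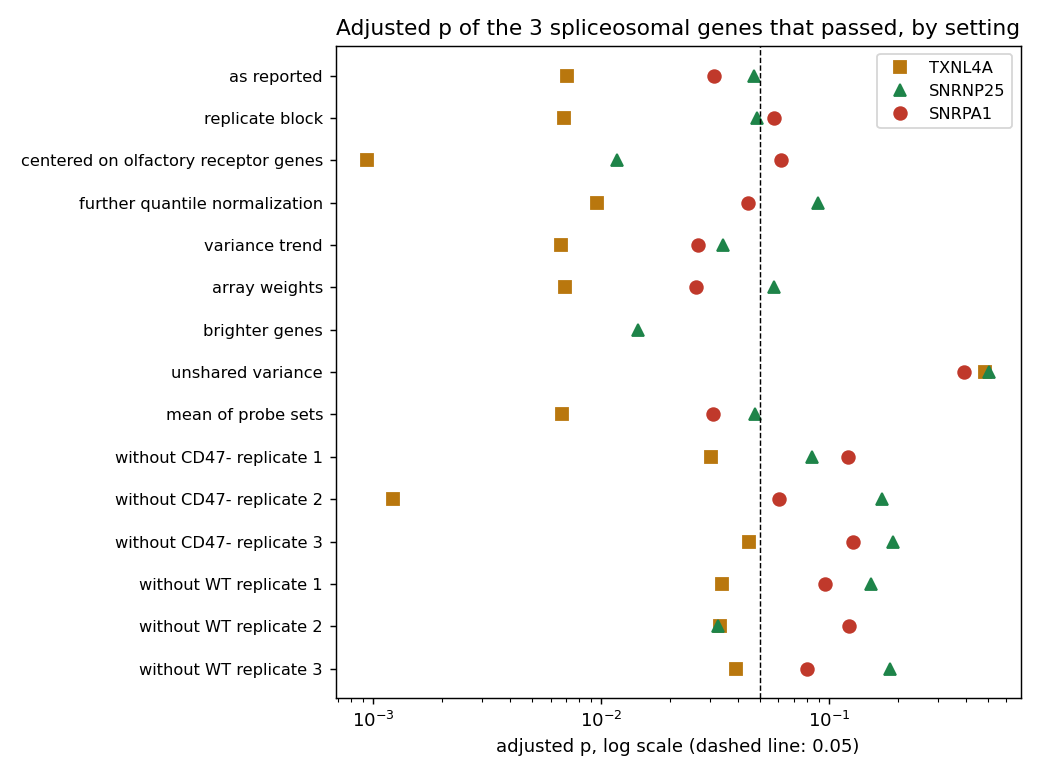
Adjusted p from limma (x axis, log scale) of SNRPA1, TXNL4A and SNRNP25 as reported and under each alternative setting (y axis), with the threshold of 0.05 drawn as a line. SNRPA1 is 0.0312 as reported and between 0.0605 and 0.128 without each array, and TXNL4A is 0.00711 as reported.

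Of 13 measured snRNP proteins outside the 44, TXNL4A passed and 12 did not, and the list's median log2 difference was 0.09. The 8 U2-associated factors had a median of 0.11, with the smallest p for U2AF1, which reads the 3′ splice site (difference 0.25, adjusted p = 0.392 in limma). The 8 minor spliceosome proteins, SNRNP25 among them, had a median of -0.05. For the 12 proteins of the PRPF19 complex and the catalytic step the median was 0.04, led by XAB2 (difference 0.26, adjusted p = 0.388). The 19 genes of snRNP assembly and snRNA transport had a median of 0.03. They include PRMT5, which methylates Sm proteins (difference 0.30, adjusted p = 0.237), and XPO1, or exportin-1, with log2 levels of 4.53, 4.56 and 4.67 in CD47- EVs, against 4.48, 4.62 and 4.52 in WT EVs (difference 0.05, adjusted p = 0.951). The partners of the cytoplasmic LSM1 ring had a median of -0.01, with the smallest p for the decapping protein DCP1A (difference 0.17, adjusted p = 0.63). The partners of the U7 snRNP in histone mRNA processing had a median of 0.04, with the smallest p for the endonuclease CPSF3 (difference 0.21, adjusted p = 0.463).

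Most of the 44 genes (39) had a single probe set with their symbol alone, and 5 had several. The probe sets of a gene differed little in their log2 difference: 0.26 and 0.29 for LSM12, -0.04 and -0.01 for SNRPE, 0.01 and -0.08 for SNRPG, and between -0.03 and 0.05 for LSM14B. Those of LSM2 held identical values and those of LSM12 nearly identical ones on each array, so their agreement may not be independent. Mean log2 levels were 6.38 and 3.87 for the probe sets of SNRPE, and 5.68 and 4.28 for those of SNRPG. The brighter probe set of each gene was the one used. Several Sm genes have processed pseudogenes or near-identical relatives, and probe sets of SNRPE, SNRPG and SNRPB may measure these as well. A probe set listed for SNRPN together with SNURF gave log2 levels of 5.02, 4.78 and 4.85 in CD47- EVs, against 4.79, 4.76 and 4.79 in WT EVs, and was not tested.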

How the data were processed

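RNA of 3 EV preparations from CD47- JinB8 cells and 3 from WT Jurkat cells was measured on 6 arrays. The deposited values are log2 levels, which the authors made with RMA in Affymetrix Expression Console (versions: not given in the sources used here). Background correction, quantile normalization and probe-set summary make levels relative within each array. The labeling protocol calls the human array a mouse array, and the human annotation was used. The labels name Exo-quick or Exo-spin for EV isolation without assigning a kit to a sample.

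Of 33297 probe sets, 19460 carried 1 gene symbol, 1754 several and 12083 none. The 18417 genes (18389 matched to RefSeq) were each taken from the probe set with the highest mean, with no filter on level. CD47- and WT EVs were compared with limma 3.58.1 in R 4.3.3 (lmFit, eBayes), without a block, with Benjamini-Hochberg adjustment over all genes and a threshold of 0.05. The step was tested on simulated data.

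The members and gene lists were chosen with earlier results of these data known. Genes were named if they passed, or as SNRPA1, as up to 3 further members of each class with the largest difference, as the 3 members with the highest mean, or as the gene with the smallest p of a pathway list where none passed. SNRPB2, XPO1 and members given in ranges were named in addition, after their values were seen. Alternatives were a replicate block, arrays centered on the olfactory receptors, a further quantile normalization, a variance trend, array weights, brighter genes only, unshared variances, the mean of a gene's probe sets, a threshold of 0.1 and leaving out each array.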

Additional observations from a re-analysis of the deposited data

How the results depend on the processing

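None of the 44 snRNP protein mRNAs chosen by symbol passed as higher except with centering on the olfactory receptor genes, where 1 did, SNRPB, and where the median log2 difference of the 44 was 0.10 and that of all genes 0.06. SNRPA1 passed with a further quantile normalization, a variance trend and array weights. It has a single probe set, so taking the mean of probe sets left its values unchanged. It did not pass with the replicate number as a block (-0.41), centering (-0.35) or unshared variances (-0.41, adjusted p = 0.391), and it was not among the 7222 brighter genes, so that the number of snRNP protein mRNAs called lower was 0 in these 4 settings. Leaving out each array gave differences for SNRPA1 of -0.44 to -0.37, 0 to 0 snRNP protein mRNAs called lower and medians of the 44 from 0.01 to 0.04. Same-numbered samples did not deviate together (r = 0.0241, -0.0165 and -0.037), so the numbers were not taken to pair the samples. With the block, 106 genes passed as higher and 3 as lower over all genes, against 123 and 3 without it.

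TXNL4A passed in each alternative that tested it except unshared variances (adjusted p between 0.000938 and 0.481), whereas SNRNP25 also failed with a further quantile normalization (0.0895) and array weights (0.0575). Uncalled differences changed sign for PRPF31 (0.01) and SNRPD2 (0.05) with centering, for SNRPD2 without CD47- replicate 2 (0.02), WT replicate 2 (0.0035) or WT replicate 3 (0.05), and for LSM4 without CD47- replicate 3 (-0.01). Leaving out each array gave -0.10 to 0.05 for SNRPD2 and -0.01 to 0.14 for LSM4. Of the 394 values computed for the 27 other named genes, 378 kept their direction and side of the threshold, 6 reversed, 9 no longer passed and 1 newly passed. Only TXNL4A and SNRNP25 of these genes had passed as reported, and the 9 lost calls were theirs (1 for TXNL4A, 8 for SNRNP25). Most of the other genes were far from the threshold, and the threshold of 0.1 reused the reported fit. The 378 therefore say little about how firm a call is. Over all genes, 241 passed as higher with centering, 1 with unshared variances, 192 at a threshold of 0.1, and 77, 58 and 53 without CD47- replicate 2, CD47- replicate 3 and WT replicate 3. The causes were not tested. The precision is limited by the number of arrays.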

Other observations

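Among the 74 genes of the wider pathway, 10 had CD47- arrays entirely above the WT arrays, where 7.3% of all genes did. TXNL4A and SNRNP25 were among these. A further 4 had CD47- arrays entirely below the WT arrays, where 5.53% of all genes did, and none of the 4 passed. The 4 lower genes were SNRNP40, RNPC3, ZCRB1 (log2 difference -0.17) and EDC4 (-0.10). The first pair is described because of its size, after the values were seen. SNRNP40, a U5 protein, had log2 levels of 5.36, 5.16 and 4.91 in CD47- EVs, against 5.51, 5.65 and 5.50 in WT EVs, a difference of -0.41 (SE 0.11) with an adjusted p of 0.16 in limma. RNPC3, which encodes a protein of the U11/U12 snRNP, had levels of 4.61, 5.47 and 5.44 in CD47- EVs, against 5.84, 6.04 and 5.55 in WT EVs. Its difference was -0.64 (SE 0.19, adjusted p = 0.272), and its other probe set, with a mean log2 level of 2.79, gave -0.01.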
